A study of Homo sapiens with 12 samples.

Results

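The replication-dependent histone cluster genes are the genes that a cell reads to make the bulk of its histone proteins, and 71 of them were measured among the 58302 genes of the table. The genes were selected by name and gene type, as protein-coding genes whose symbols begin with HIST1H, HIST2H, HIST3H or HIST4H. Nothing in that rule is an expression value, but the family was proposed for description with the FPKM of these 3 lines in view, so its values are given as a description with no p-values. Where limma calls of these genes are counted below, nothing is read from the counts. FPKM, the reads counted on a gene relative to the length of its exons and to the reads of the library, was the unit throughout. The 71 genes comprised 6 H1, 17 H2A, 18 H2B, 15 H3 and 15 H4 genes, and 55 of them lie in the HIST1 cluster on chromosome 6, 12 in HIST2 and 3 in HIST3 on chromosome 1, and 1, HIST4H4, on chromosome 12.

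DNA in the nucleus is wound around octamers of the core histones H2A, H2B, H3 and H4, and the linker histone H1 binds where the DNA enters and leaves. Most of this protein is made in S phase from clustered genes that have no introns and whose transcripts end in a conserved stem-loop in place of a poly(A) tail. The stem-loop binding protein SLBP and the U7 snRNP process that end, the co-activator NPAT drives transcription of the clusters, and the message is degraded when DNA replication stops. Several cluster genes also have a polyadenylation signal further downstream and give tailed transcripts, above all in cells that have left the cycle. The replacement histones, such as H3F3A, H3F3B, H2AFZ and H1F0, are made from ordinary polyadenylated genes through the whole cycle.

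The study sequenced RNA of established human prostate lines to compare benign with PCa cells, with 4 libraries each of BPH-1, DU145 and PC3. BPH-1 is benign prostate epithelium immortalised with the SV40 large T antigen, and DU145 and PC3 are androgen-independent PCa lines. The sample labels name no treatment for any of the 3. The paper gives DMEM with fetal bovine serum as the medium of DU145 and PC3, and names no medium for BPH-1. Each group is 1 cell line, nothing in the labels says that the 4 libraries of a line came from separate cultures, and the p-values below therefore measure only the spread between these libraries, which may be technical. In a comparison of this kind a line with fewer cells in S phase and a line with less histone RNA per cell cannot be told apart.

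The libraries held between 12950665 and 16309560 reads (median 15341001), as recovered from the steps between low FPKM values, and all values of the 71 genes above 0 were whole reads within 0.02 of a read. Whether poly(A) RNA was selected or ribosomal RNA was removed is not given in the sources used here, nor is the use of strand. The epithelial keratin KRT8 was between 14.7 and 41.7 FPKM and KRT18 between 26.8 and 99.2 FPKM in every library, and the prostate marker KLK3 was at 0 in all 12. The epithelial adhesion genes EPCAM and CDH1 were at least 57.7 and 16.3 FPKM in BPH-1 and lower in both PCa lines. They were at most 0.573 and 0.297 in the libraries labelled DU145, and at 6.92 to 11.1 and 0.427 to 1.42 in PC3. The keratin KRT19 was at 20 to 39.9 FPKM in BPH-1, 15.6 to 31.2 in DU145 and 164 to 307 in PC3. Of 14 markers of stroma, blood and vessel, 13 were at most 3.84 FPKM in every library, with PTPRC at most 1.54 and PECAM1 at most 2.28. The exception was the myeloid gene LYZ, at 7.61 to 10.1 FPKM in BPH-1, 0 to 8.63 in DU145 and at most 0.167 in PC3. The part of such cells in the results was not tested. The libraries of DU145 and PC3 followed gene GC content. Over 2660 other coding genes with GC under 42%, the median log2 difference from the BPH-1 mean was −1.99, −0.76, −2.49 and −0.96 in DU145 replicates 1 to 4 and −1.04, −1.09, −1.58 and −2.19 in PC3 replicates 1 to 4, whereas over 2279 genes with GC of 58% or more it lay between 0.18 and 0.88. Values with this trend divided out, and without the 3 steepest libraries (DU145 replicates 1 and 3 and PC3 replicate 4), are given beside the results.

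The processing signal that sets this family apart was read from the annotated transcripts of GENCODE 29. Of the 71 genes, 36 have an annotated 3′ UTR and 30 of these hold a stem-loop of 6 paired bases and a loop of 4, in 4 different forms. The same pattern stood in 41 of 19717 other coding genes searched (0.208%). One example of each form is shown, followed by 2 genes that were low in DU145, with the stem-loop in capitals and 5 bases on each side.
HIST2H2AA4, chr1:149851574-149851589, plus strand: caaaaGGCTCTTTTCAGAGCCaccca
HIST1H2BD, chr6:26158587-26158602, plus strand: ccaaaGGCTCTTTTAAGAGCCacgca
HIST1H4J, chr6:27824459-27824474, plus strand: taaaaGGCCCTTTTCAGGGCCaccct
HIST2H4A, chr1:149833032-149833047, plus strand: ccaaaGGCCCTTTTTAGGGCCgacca
HIST3H2A, chr1:228457369-228457384, minus strand: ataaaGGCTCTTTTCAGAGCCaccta
HIST1H2BH, chr6:26252055-26252070, plus strand: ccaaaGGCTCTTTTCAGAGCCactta
These are GRCh38 coordinates of the 16 bases in capitals. The form of HIST2H2AA4, HIST3H2A and HIST1H2BH was the most frequent and stood in 17 genes, that of HIST1H2BD in 5, that of HIST1H4J in 5 and that of HIST2H4A in 3. All 8 genes with a GGCCC stem were H4 genes. HIST2H2AA4 and HIST1H2BH therefore carry the same 16 bases, although the one was among the highest genes of DU145 and the other had no read there. The other 35 genes have no annotated 3′ UTR, HIST1H2BK and HIST1H1C among them. Reads past the stop codon of their coding transcripts therefore did not count toward their FPKM. HIST1H3J, also in this set, has 2 annotated transcripts, of which 1 is coding.

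Summed over the 71 genes, FPKM was highest in DU145 and similar in the other 2 lines. The BPH-1 libraries summed to 173, 154, 241 and 284, the DU145 libraries to 1276, 966, 1484 and 920, and the PC3 libraries to 201, 173, 210 and 364. Every DU145 library was above every library of BPH-1 and PC3, and the libraries of BPH-1 and PC3 overlapped. The mean was 213 ± 60.4 (SD, n = 4) in BPH-1, 1161 ± 267 (SD, n = 4) in DU145 and 237 ± 86.2 (SD, n = 4) in PC3, a ratio of 5.45 for DU145 to BPH-1 and of 1.11 for PC3 to BPH-1. With the GC trend divided out the ratio of DU145 to BPH-1 was 3.96, and without the 3 steepest libraries it was 4.42. Without PC3 replicate 4 the ratio of PC3 to BPH-1 was 0.914. That library stood apart within its line, with 26 of the 27 genes of a mean of at least 1 FPKM above their PC3 mean. In BPH-1 replicates 3 and 4 were 1.56 and 1.84 times the lowest library.

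**Figure D1:**
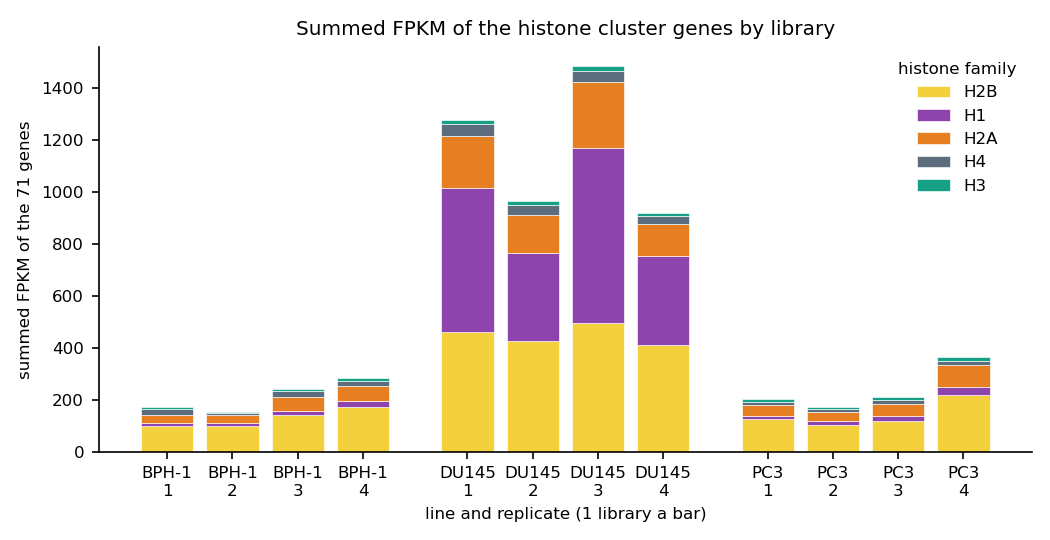
Summed FPKM of the 71 histone cluster genes in each library (y axis, from 0), stacked by histone family, for 4 libraries each of BPH-1, DU145 and PC3. The DU145 bars reach 920 to 1484 and the BPH-1 and PC3 bars 154 to 364, and the H1 segment is the one that widens most in DU145.

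The families did not contribute equally. Summed H1 FPKM was 15.5 ± 4.86 in BPH-1, 478 ± 166 in DU145 and 18.9 ± 6.92 in PC3 (SD, n = 4), so that DU145 was 30.7 times BPH-1. The ratio of DU145 to BPH-1 was 4.26 for H2A, 3.5 for H2B, 2.18 for H4 and 1.69 for H3. PC3 stayed between 0.799 (H4) and 1.24 (H2A) times BPH-1 in all 5 families. By cluster, DU145 was 5.43 times BPH-1 for HIST1 and 7.46 times for HIST2, but 0.414 times for the 3 HIST3 genes. The 3 genes with the highest mean, HIST1H2BK, HIST1H1C and HIST2H2AA4, made up 56.7% of the sum in BPH-1, 81.2% in DU145 and 57.7% in PC3 (means of 4 libraries). The remaining 68 genes summed to 93.2 ± 30.7 in BPH-1, 215 ± 30.7 in DU145 and 98.8 ± 29.4 in PC3.

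Of the linker histone genes, HIST1H1C, which encodes H1.2 and lies at chr6:26055787-26056428, had the widest difference. Its FPKM was 11.6, 9.29, 13.7 and 19.2 in BPH-1, 540, 322, 649 and 326 in DU145 and 11.9, 14.8, 17.2 and 26.9 in PC3. The lowest DU145 library was above the highest library of either other line by a wide margin. HIST1H1C supplied 38.7% of the summed histone FPKM in DU145, against 6.3% in BPH-1 and 7.51% in PC3. The difference of DU145 from BPH-1 was 4.97 on the log2(FPKM + 1) scale (standard error 0.28) and 4.47 with the GC trend divided out. HIST1H1E, which encodes H1.4, was at 0.516, 0.521, 1.79 and 0.595 FPKM in BPH-1, 15.7, 15.3, 23.8 and 15 in DU145 and 0.41, 0.387, 0.861 and 0.717 in PC3. Its libraries did not overlap between DU145 and the other lines, and the log2 difference from BPH-1 was 3.34 (standard error 0.24). HIST1H1D, which encodes H1.3, overlapped between all lines: it was between 0.492 and 1.84 FPKM in BPH-1, between 0.778 and 1.75 in DU145 and between 0.219 and 0.811 in PC3. HIST1H1B, which encodes H1.5, had no read in any of the 12 libraries, which allows 3 reads or an FPKM of at most 0.34 in any one library, a limit that covers counting error only. HIST1H1A and the testis gene HIST1H1T had at most 0.111 and 0.208 FPKM.

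**Figure D2:**
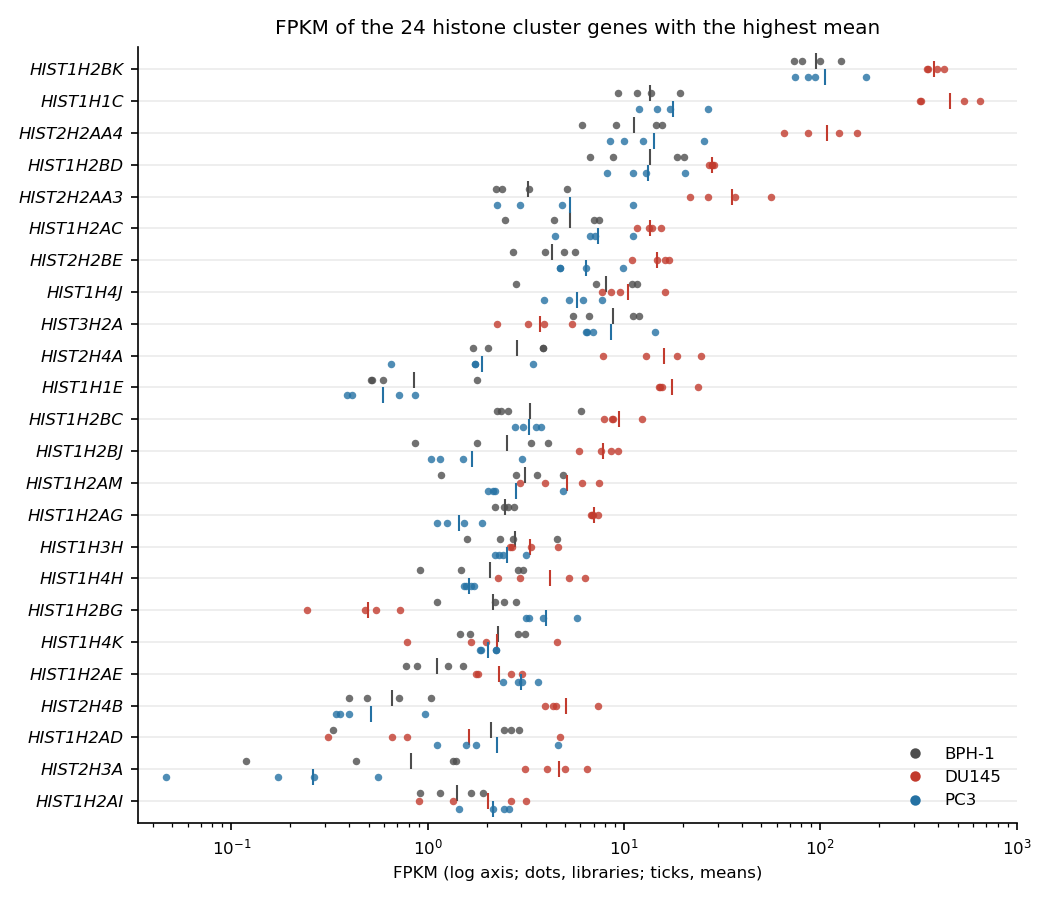
FPKM (x axis, log scale) of the 24 histone cluster genes with the highest mean over all libraries, 1 row a gene, with 1 dot for each library and a tick at the mean of each line. For HIST1H1C, HIST1H2BK and HIST2H2AA4 the 4 DU145 dots lie to the right of all others, whereas for HIST3H2A and HIST1H2BG they lie to the left.

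Among the H2A genes the HIST2 pair HIST2H2AA4 and HIST2H2AA3 led in DU145. HIST2H2AA4 had an FPKM of 6.09, 9.06, 14.5 and 15.6 in BPH-1, 125, 87, 153 and 65 in DU145 and 9.99, 8.54, 12.5 and 25.6 in PC3. The 4 DU145 libraries were above all others, with a log2 difference from BPH-1 of 3.15 (standard error 0.33). HIST2H2AA3 is a copy of it. All of its 50-base stretches also stand in HIST2H2AA4, so the split of reads between these genes is uncertain and their sum is the safer value: 14.6 ± 5.67 in BPH-1, 143 ± 54.2 in DU145 and 19.5 ± 11.8 in PC3 (SD, n = 4). HIST1H2AC, a gene with a long annotated transcript and GC of 42%, was at 4.39, 2.49, 7.03 and 7.44 FPKM in BPH-1, 13.9, 11.6, 15.4 and 13.4 in DU145 and 6.69, 4.45, 7.12 and 11.1 in PC3. Its log2 difference of DU145 from BPH-1 was 1.28 (standard error 0.27) and became wider, 2.29, with the GC trend divided out.

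Some H2A genes had another order of the lines. HIST1H2AG was at 2.49 ± 0.224 FPKM in BPH-1, 7 ± 0.261 in DU145 and 1.45 ± 0.338 in PC3 (SD, n = 4), with no overlap between any 2 lines. HIST1H2AE was lowest in BPH-1: 1.27, 0.772, 0.886 and 1.51 FPKM, against 3.03, 1.81, 2.67 and 1.76 in DU145 and 2.88, 3.01, 2.41 and 3.64 in PC3. The log2 difference of PC3 from BPH-1 was 0.92 (standard error 0.15), the widest rise of the family in that comparison. HIST2H2AC was at 1.33, 1.34, 0.991 and 1.81 FPKM in BPH-1, 1.58, 0.472, 1.83 and 0.382 in DU145 and 2.38, 1.87, 1.85 and 2.57 in PC3, and rested on at most 13 reads a library. HIST1H2AD spread too far within lines to be ordered, from 0.33 to 2.93 FPKM in BPH-1, 0.312 to 4.74 in DU145 and 1.11 to 4.59 in PC3.

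HIST1H2BK, an H2B gene at chr6:27146418-27146798, had the highest mean FPKM of all 71 genes. Its FPKM was 73.2, 80.7, 100 and 127 in BPH-1, 392, 352, 426 and 348 in DU145 and 94.4, 74.3, 86.8 and 170 in PC3. DU145 stood above the other lines in every library, by 2.01 on the log2 scale against BPH-1 (standard error 0.19), and PC3 overlapped BPH-1. Of its 50-base stretches 74.1% also stand in other genes, 61.4% in H2BFS, so reads of HIST1H2BK may have been counted elsewhere or come from there. HIST1H2BD was at 8.78, 6.73, 18.6 and 20.2 FPKM in BPH-1, 28, 28.9, 27.2 and 28.1 in DU145 and 13, 8.23, 11.1 and 20.4 in PC3, and was the steadiest of the high genes within DU145. HIST2H2BE was at 2.72, 3.97, 4.96 and 5.61 FPKM in BPH-1, 16.2, 14.8, 16.9 and 11 in DU145 and 4.72, 4.72, 6.44 and 9.89 in PC3. HIST1H2BJ was at 7.85 ± 1.45 FPKM in DU145, against 2.53 ± 1.47 in BPH-1 and 1.68 ± 0.915 in PC3 (SD, n = 4).

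A smaller set of H2B genes was low or undetected in DU145. HIST1H2BH had no read in any DU145 library, 2.05, 1.37, 3.53 and 2.77 FPKM in BPH-1 and 0.637, 0.673, 0.56 and 0.787 in PC3. Against the FPKM that 3 reads in each DU145 library would give, DU145 was at least 25.4-fold lower than BPH-1 and at least 6.95-fold lower than PC3. Its GC of 41.6% puts it among the genes that the GC trend lowers. HIST1H2BG was at 2.2, 1.11, 2.81 and 2.46 FPKM in BPH-1, 0.724, 0.48, 0.549 and 0.243 in DU145 and 3.17, 3.28, 3.85 and 5.74 in PC3. The 3 lines did not overlap, DU145 being lowest and PC3 highest, and the log2 difference of PC3 from DU145 was 1.72 (standard error 0.19). HIST1H2BF was at 1.14 ± 0.189 FPKM in BPH-1, 0.309 ± 0.137 in DU145 and 0.606 ± 0.251 in PC3 (SD, n = 4). Another H2B gene of low GC, HIST1H2BN (39.5%), was higher in DU145. It was at 1.97 ± 0.565 FPKM there, against 0.265 ± 0.0846 in BPH-1 and 0.233 ± 0.064 in PC3 (SD, n = 4).

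The H3 genes were low in all lines and split in direction. HIST1H3H had the highest mean and the lines overlapped: 2.73, 1.59, 2.34 and 4.56 FPKM in BPH-1, 2.69, 4.61, 2.62 and 3.37 in DU145 and 2.43, 2.3, 2.21 and 3.18 in PC3. HIST2H3A and HIST2H3C share all their 50-base stretches and together were at 0.962 ± 0.716 FPKM in BPH-1, 5.83 ± 1.86 in DU145 and 0.353 ± 0.306 in PC3 (SD, n = 4). HIST1H3B was at 2.41 ± 0.403 FPKM in DU145 and at 0.314 ± 0.336 in BPH-1, on 20 reads a library at most. HIST1H3C went the other way. It was at 3.16, 1.43, 2.04 and 1.56 FPKM in BPH-1 and 2.07, 2.48, 3.86 and 4.7 in PC3, while a single read of DU145 replicate 2 (0.149 FPKM) was the only one in that line. HIST1H3G had no read in DU145, at most 2 in a PC3 library and 0.803 ± 0.487 FPKM in BPH-1 (SD, n = 4), which makes DU145 at least 9.84-fold lower than BPH-1 by the same limit. HIST1H3E had at most 1 read in a DU145 library, but 11 to 44 reads in a BPH-1 and 25 to 50 in a PC3 library.

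Among the H4 genes, most of which encode the same protein, HIST1H4J was highest in mean and did not separate the lines: 11, 2.81, 11.6 and 7.21 FPKM in BPH-1, 9.6, 7.73, 16.2 and 8.59 in DU145 and 3.93, 5.28, 7.73 and 6.21 in PC3. HIST1H4K shares all of its 50-base stretches with it, and together they were at 10.4 ± 4.43, 12.8 ± 5.45 and 7.83 ± 1.49 FPKM in BPH-1, DU145 and PC3 (SD, n = 4). HIST2H4A and HIST2H4B are near-identical copies too (97.5% and 97.2% of their stretches shared), and together they were at 3.52 ± 1.41 FPKM in BPH-1, 21.1 ± 7.05 in DU145 and 2.41 ± 1.43 in PC3 (SD, n = 4). HIST2H4A alone was at 24.7, 18.7, 12.9 and 7.81 in DU145, all above the highest library of the other lines, 3.85. HIST1H4H was at 2.09 ± 1.06 FPKM in BPH-1, 4.2 ± 1.9 in DU145 and 1.62 ± 0.0823 in PC3 (SD, n = 4), with overlap between BPH-1 and DU145. HIST1H4E was nearly undetected in DU145, with 1 read in 4 libraries, and was at 0.872, 0.176, 0.91 and 0.689 FPKM in BPH-1 and 1.19, 0.883, 1.45 and 1.51 in PC3.

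In the small clusters the lower HIST3 sum of DU145 rested on HIST3H2A. Some HIST1 genes, HIST1H2BG and HIST1H2BH among them, were lower in DU145 as well. HIST3H2A, the one HIST3 gene at an appreciable level, was at 6.67, 5.49, 11.9 and 11.1 FPKM in BPH-1, 3.93, 2.26, 5.43 and 3.25 in DU145 and 6.47, 6.44, 6.93 and 14.4 in PC3. All 4 DU145 libraries were below all others, by 1.04 on the log2 scale against BPH-1 (standard error 0.28), and by 1.49 with the GC trend divided out. HIST3H2BB was at 0.477 ± 0.291 FPKM in BPH-1, 0.12 ± 0.0567 in DU145 and 0.326 ± 0.113 in PC3 (SD, n = 4), and HIST4H4 at 0.177 at most. HIST3H3, a testis H3 gene, had no read in any library. In all, 5 of the 71 genes had no read in the 12 libraries (HIST1H1B, HIST1H2AA, HIST1H2BA, HIST1H4F and HIST3H3), and 17 had 15 reads or fewer in total. At a mean of at least 10 FPKM stood 4 genes in BPH-1, 10 in DU145 and 4 in PC3.

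For DU145 against BPH-1 the low-value filter left 33 of the 71 genes. Of these, 21 were called higher in DU145 and 5 lower by limma at an adjusted p under 0.05, and 7 were not called. Over all 17016 genes tested 30.3% were called higher and 32.4% lower, and since the family was chosen with this comparison in view nothing is read from the counts. Every DU145 library was above every BPH-1 library for 21 of the 33 genes and below for 5, against 28.8% and 30.6% of all genes tested. Over all 71 genes, untested ones included, these counts were 25 and 9, and no share over all unfiltered genes was taken to set beside them. The median log2 difference was 0.90 over the 33 genes and −0.03 over all genes tested. The widest rises among genes with a mean of at least 1 FPKM were those of HIST1H1C, HIST1H1E, HIST2H2AA4, HIST2H2AA3 and HIST2H4A, and the widest falls those of HIST1H2BH, HIST1H2BG, HIST3H2A, HIST1H2BF and HIST1H2AD, the last within its spread (−0.39, standard error 0.48). By family, 2 H1, 5 H2A, 9 H2B, 3 H3 and 2 H4 genes were called higher and 0 H1, 1 H2A, 3 H2B, 1 H3 and 0 H4 genes lower.

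For PC3 against BPH-1 the filter again left 33 genes, of which 4 were called higher and 3 lower by the same test and 26 were not called. The shares over all 16408 genes tested were 27.1% higher and 40.4% lower. The PC3 libraries all lay above those of BPH-1 for 3 of the 33 genes and all below for 2, against 25.8% and 38.6% of all genes tested. Over all 71 genes these counts were 6 and 4, again with no share over all unfiltered genes. The median log2 difference was 0.02 over the 33 genes and −0.13 over all genes tested. HIST1H2AE, HIST1H2BG, HIST1H4E and HIST2H2AC were called higher and HIST1H2BH, HIST1H2AG and HIST1H2BF lower. Among genes with a mean of at least 1 FPKM, HIST1H3C (0.48) and HIST2H2BE (0.47) were among the 5 widest rises on the log2 scale and HIST2H4A (−0.45) and HIST1H2BJ (−0.35) among the 5 widest falls, and none of these 4 was called. Of the 7 calls only that of HIST1H2AE held under all alternatives run that tested it. The log2 difference of HIST1H2BH was −1.0 (standard error 0.18) and fell to −0.33, with no call, once the GC trend was divided out. Scaling mattered for this comparison: 1 gene was called higher and 3 lower with FPKM rescaled to the same sum, and 10 higher and 1 lower with upper-quartile scaling. These scalings moved the median of all genes to −0.28 and to 0.10 on the log2 scale, and the share of all calls that were higher from 40.2% to 30.3% and to 55.3%. For DU145 against BPH-1 the same scalings moved that median to −0.16 and 0.13 and the share of higher calls from 48.4% to 38.6% and to 57.3%, with 21 and 22 of the 71 genes called higher.

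For PC3 against DU145, 33 genes were tested, 22 were called lower in PC3 and 6 higher, and 5 were not called. Over all 16420 genes tested 28.3% were called lower and 20.0% higher. Every PC3 library was below every DU145 library for 21 of the 33 genes and above for 7, against 27.5% and 19.1% of all genes tested. Over all 71 genes, untested ones included, these counts were 23 and 13, again with no share over all unfiltered genes. The median log2 difference was −0.91 over the 33 genes and −0.05 over all genes tested. The widest falls among such genes were HIST1H1C (−4.61, standard error 0.30), HIST1H1E (−3.52, standard error 0.19), HIST2H2AA4 (−2.89, standard error 0.36), HIST2H2AA3 and HIST2H4A. The widest rises among genes with a mean of at least 1 FPKM were HIST1H3C (2.0, standard error 0.20), HIST1H2BG, HIST1H4E (1.15, standard error 0.10), HIST3H2A (0.99, standard error 0.29) and HIST2H2AC, which was not called. Each of the 3 comparisons shares 4 libraries with each of the others, so they are not independent of one another.

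**Figure D3:**
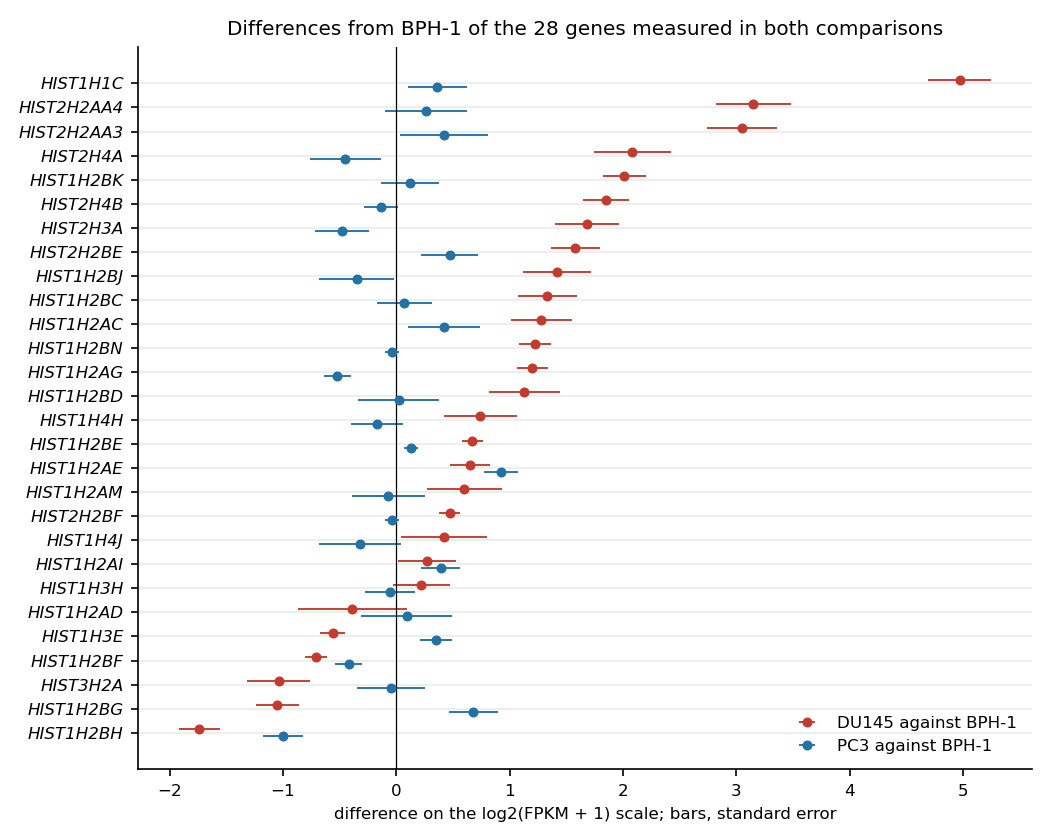
Difference from BPH-1 on the log2(FPKM + 1) scale (x axis, bars are standard errors) of the 28 histone cluster genes measured in both comparisons, with DU145 and PC3 each set against the same 4 BPH-1 libraries. The DU145 points run from −1.74 (HIST1H2BH) to 4.97 (HIST1H1C), whereas the PC3 points stay between −1.0 and 0.92.

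Gene GC content moved with part of these differences. GC content was taken from the longest annotated transcript of each gene. It runs from 39.5% to 67.4% over the 71 genes, and the genes that were higher in DU145 lie at both ends of this range. Transcript length moved with the libraries too. Over 97 other coding genes whose longest transcript has at most 800 bases, the median log2 difference from the BPH-1 mean was 0.60, 0.16, 0.84 and 0.24 in DU145 replicates 1 to 4. In PC3 replicates 1 to 4 it was 0.30, 0.41, 0.47 and 0.60. Over 2164 genes with a longest transcript of over 6000 bases it was −1.13, −0.32, −1.56 and −0.33 in DU145 and −0.54, −0.53, −0.66 and −1.09 in PC3. Dividing out the GC trend made no direct correction for length. The part of length in the histone values and in those of the gene lists below was not tested. HIST2H2AA4 at 61.7%, HIST1H2BK at 61.2% and HIST1H1E at 60.1% became less different when the trend was divided out (log2 differences of 2.61, 1.45 and 2.98), as did HIST1H1C at 57.5%. All 4 were still higher in DU145. HIST1H2AC and HIST1H2BN, at the lower end, became more different (2.29 and 1.82). HIST1H2BH at 41.6% was less low by this measure, at −1.23 against −1.74, and HIST1H2BG, HIST2H4A and HIST1H2BC moved by at most 0.08. Within DU145, replicates 2 and 4 followed GC content least, and HIST1H1C was at 322 and 326 FPKM in them. In replicates 1 and 3, which followed it most, HIST1H1C was at 540 and 649, and in the highest BPH-1 library at 19.2. The part of GC content in these differences was not tested.

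**Figure D4:**
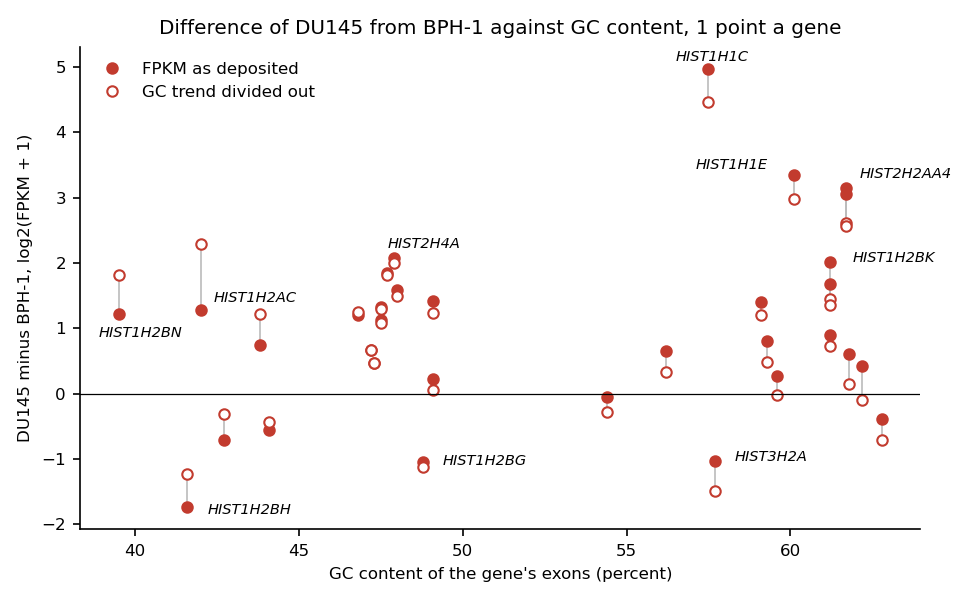
Difference of DU145 from BPH-1 on the log2(FPKM + 1) scale (y axis) against GC content in percent (x axis), for the 33 histone cluster genes tested. The GC content is that of each gene's longest annotated transcript, although the axis label names exons. Filled points are FPKM as deposited and open points are values after the GC trend of the libraries was divided out. Genes from HIST1H1D (54.4% GC) upward move down, the 6 genes up to HIST1H3E (44.1%) move up, and HIST1H1C stays highest at 4.47.

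The ratio was also taken by the annotated 3′ end. The 35 genes with no annotated 3′ UTR summed to 127 ± 31.5 FPKM in BPH-1 and 861 ± 202 in DU145 (SD, n = 4), a ratio of 6.78. The 29 genes with a 3′ UTR of over 100 bases summed to 74.8 ± 27.9 and 269 ± 61.6, a ratio of 3.6. The higher ratio of the first set rested on HIST1H1C: without it the other 34 genes summed to 114 ± 27.4 and 402 ± 39.8, a ratio of 3.54. For PC3 against BPH-1 the ratios of the 2 sets were 1.15 and 1.07. The 40 genes whose longest transcript is at most 600 bases gave a ratio of 4.04 for DU145 to BPH-1. The part of transcript ends in the difference was not tested.

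Cluster genes often lie in pairs that share 1 upstream region and are read away from each other, most often an H2A with an H2B gene. There were 12 such pairs with starts under 1000 bases apart. HIST1H2BJ and HIST1H2AG, 292 bases apart, had similar levels in each line, with mean FPKM of 2.53 and 2.49 in BPH-1, 7.85 and 7 in DU145 and 1.68 and 1.45 in PC3. HIST1H2BC and HIST1H2AC, 219 bases apart, were at 3.31 and 5.34 in BPH-1, 9.39 and 13.6 in DU145 and 3.29 and 7.35 in PC3. The pair of HIST1H2BK and HIST1H2AH, 331 bases apart, was far from equal, at 95.2 and 0.417 FPKM in BPH-1, 380 and 0.121 in DU145 and 106 and 0.244 in PC3. HIST1H2BG and HIST1H2AE, 283 bases apart, changed their order: 2.15 and 1.11 in BPH-1, 0.499 and 2.32 in DU145 and 4.01 and 2.98 in PC3. Genes that begin close to each other thus had unlike levels in some pairs and like levels in others.

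The upstream sequences of the 3 highest genes are shown, because their difference between lines carried most of the sum. They are the 120 bases before the RefSeq start of each gene on GRCh38.p14, with the motifs in capitals. These were CCAAT on either strand, the TATA box written as TATAAA, and an octamer, ATTTGCAT.
HIST1H1C, chr6:26056471-26056590, minus strand: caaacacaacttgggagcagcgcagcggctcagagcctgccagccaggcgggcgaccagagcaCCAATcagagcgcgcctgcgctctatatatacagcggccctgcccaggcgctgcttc
HIST1H2BK, chr6:27146856-27146975, minus strand: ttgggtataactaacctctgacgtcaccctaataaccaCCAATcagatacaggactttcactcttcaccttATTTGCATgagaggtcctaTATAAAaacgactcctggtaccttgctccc
HIST2H2AA4, chr1:149850941-149851060, plus strand: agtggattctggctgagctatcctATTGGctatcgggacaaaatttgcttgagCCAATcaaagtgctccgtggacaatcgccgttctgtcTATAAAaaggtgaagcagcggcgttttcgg
The 3 motifs were searched on both strands in 300 bases around the start, 250 before it and 50 after it, for the 66 genes found in the RefSeq table. ATTTGCAT, the octamer known from H2B promoters, stood in 14 of 18 H2B and 11 of 16 H2A promoters, in none of the H1, H3 and H4 promoters, and in 1.77% of all 35116 promoters. An H2A and an H2B gene of 1 pair can share the same octamer. CCAAT stood in 84.8% of the histone promoters and 34.6% of all, and TATAAA in 66.7% and 11.5%. These matches describe the windows and say nothing about binding.

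The 12 replacement histone genes were not used to choose the family and were tested. Like the supply and S-phase genes below, they were listed with earlier results of these data known. The p-values of these lists are therefore not those of lists fixed before the data were seen. For DU145 against BPH-1, 30.3% of all genes tested were called higher and 32.4% lower. Of the 12 genes, 3 rose (H2AFZ, H2AFY2 and H1F0), 4 fell (H2AFV, H3F3A, H3F3B and H3F3C) and 5 did not pass the test, with a median log2 difference of −0.28. With the GC trend divided out 3 of these 7 calls were kept: those of H1F0, H3F3A and H3F3C (−0.17, adjusted p = 0.532) were lost, and H2AFV went from −0.45 to 0.39 (adjusted p = 0.228). H1F0, the linker histone of resting cells, was the highest of the list: 586, 553, 416 and 367 FPKM in BPH-1, 1109, 767, 871 and 756 in DU145 and 503, 565, 592 and 393 in PC3. It rose by 0.87 on the log2 scale in DU145 against BPH-1 (standard error 0.20, limma adjusted p = 0.00334), a call that was lost with the GC trend divided out (0.43, adjusted p = 0.0753). H2AFZ, the H2A.Z gene, rose by 0.75 (standard error 0.18, adjusted p = 0.00533) from 18.1 to 23.4 FPKM in BPH-1 to 29.2 to 46.3 in DU145, with no overlap. H3F3A and H3F3B both encode H3.3. H3F3A was at 16.4, 17.9, 13.8 and 14 FPKM in BPH-1 and 3.66, 2.87, 3.83 and 3.9 in DU145, and fell by 1.85 (standard error 0.16, limma adjusted p = 7.76e-06). At a GC of 40.5% it lost the call with the trend divided out (−0.49, adjusted p = 0.266), whereas H3F3B, which fell by 0.85 (standard error 0.22, limma adjusted p = 0.00775), did not (−1.16, adjusted p = 0.00197). H3F3C is a near copy of H3F3B, and how reads were split between them is not known. H2AFX, H2AFJ, H1FX and CENPA, the centromere H3, did not pass the test in DU145 against BPH-1, with log2 differences of −0.40, 0.06, −0.27 and 0.10. After that correction H2AFX (−1.03, adjusted p = 0.000831) and H1FX (−0.94, adjusted p = 0.000588) did pass, both lower in DU145.

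For PC3 against BPH-1, 2 replacement histone genes rose, 4 fell and 6 did not pass the test, with a median log2 difference of −0.11. Over all genes tested 27.1% were called higher and 40.4% lower. H2AFY2, a macroH2A gene, rose by 0.96 (standard error 0.13, limma adjusted p = 0.000115) and H3F3C by 0.52 (standard error 0.11, adjusted p = 0.00197). H1FX fell by 1.51 on the log2 scale (standard error 0.14, limma adjusted p = 1.12e-05), from 93.5 to 111 FPKM in BPH-1 to 26.8 to 40 in PC3. H2AFY fell by 0.80 (standard error 0.11, limma adjusted p = 0.00015), H2AFZ by 0.36 and H3F3A by 0.56. H2AFY was at −0.28 with the GC trend divided out and was not called (adjusted p = 0.0892). The falls of H2AFZ and H3F3A did not keep their sign in every alternative: H2AFZ was at 0.04 with upper-quartile scaling and H3F3A at 0.69 with the GC trend divided out. For PC3 against DU145, 4 rose (H3F3A, H3F3B, H3F3C and H2AFX), 4 fell (H1F0, H1FX, H2AFZ and H2AFY) and 4 did not pass the test. Of these 8 calls 6, all but those of H3F3A and H2AFY, were kept with the GC trend divided out. Over all genes tested in that comparison 20.0% were called higher and 28.3% lower. H3F3B was higher in PC3 than in DU145, by 1.28 (standard error 0.14, limma adjusted p = 9.34e-05), and H2AFZ fell by 1.11 (standard error 0.18, adjusted p = 0.000787).

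**Figure D5:**
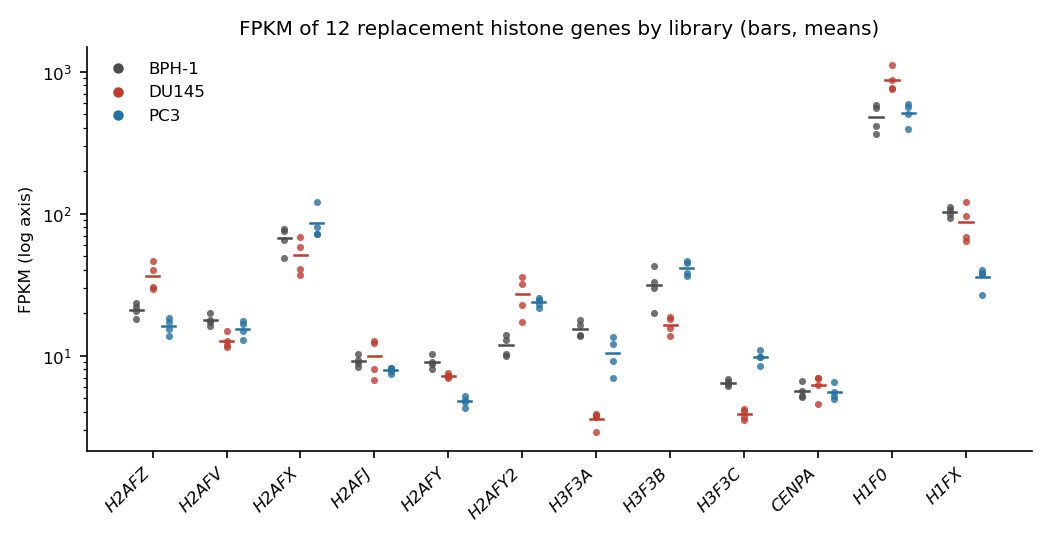
FPKM (y axis, log scale) of the 12 replacement histone genes, with 1 dot for each library and a bar at the mean of each line. H1F0 is highest in all lines and reaches 756 to 1109 in DU145, and the DU145 dots of H3F3A (2.87 to 3.9) lie under all dots of the other lines.

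Genes that transcribe, process, chaperone or deposit histones, a list of 39, were all tested. For DU145 against BPH-1, 5 rose, 18 fell and 16 did not pass the test, and for PC3 against BPH-1, 8 rose, 18 fell and 13 did not. For PC3 against DU145, 4 rose, 5 fell and 30 did not pass the test. Over all genes tested the shares called higher and lower were 30.3% and 32.4%, 27.1% and 40.4%, and 20.0% and 28.3%, in that order of comparisons. With the GC trend divided out the counts became 10 higher and 18 lower for DU145 against BPH-1, 11 and 19 for PC3 against BPH-1 and 10 and 7 for PC3 against DU145. Of the calls before that correction, 16 of 23, 20 of 26 and 9 of 9 were kept in the same direction. In this list ASF1A, an H3–H4 chaperone, turned from −0.83 to 1.01 in DU145 and from −1.26 to 0.48 in PC3, and NAP1L1, an H2A–H2B chaperone, from −0.76 to 0.74 in PC3, each called in both directions. SLBP, which binds the stem-loop, was at 7.9, 19.2, 13 and 13.1 FPKM in BPH-1, 9.78, 13.2, 8.39 and 6.34 in DU145 and 12.5, 6.94, 8.95 and 9.78 in PC3. The lines overlapped and SLBP passed the test in none of the 3 comparisons, but with the GC trend divided out it was called lower in DU145 than in BPH-1 (−0.75, adjusted p = 0.034). NPAT was at 2.71, 2.79, 2.85 and 4.14 FPKM in BPH-1, 0.0159, 0.369, 0.039 and 0.269 in DU145 and 0.498, 0.326, 0.0868 and 0.0465 in PC3. It fell by 1.81 in DU145 (standard error 0.15, limma adjusted p = 7.66e-06) and by 1.74 in PC3 (standard error 0.15, limma adjusted p = 9.45e-06), both against BPH-1. With its GC content of 37.4% NPAT is among the genes that the trend lowers. With the trend divided out the log2 differences were −0.94 and −0.84 and both passed the test (adjusted p = 8.73e-05 and 0.000184).

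CASP8AP2, known as FLASH, a partner of NPAT and of the U7 snRNP, had the widest fall in both PCa lines against BPH-1, by 2.59 in DU145 (standard error 0.17, limma adjusted p = 1.7e-06) and by 2.69 in PC3 (standard error 0.14, adjusted p = 3.2e-07). With the GC trend divided out these were −1.39 and −1.54, both still called, and CSTF2 at −1.42 was lower than CASP8AP2 in DU145. HAT1, the acetyltransferase of new H4, fell by 2.28 in DU145 (standard error 0.19, limma adjusted p = 7.19e-06), and was at −1.07 with the trend divided out. ANP32E, a chaperone of H2A.Z, fell by 2.25 in PC3 (standard error 0.31, adjusted p = 0.000156), and was at −0.64 with the trend divided out. In DU145 ANP32E was called lower (−1.24, adjusted p = 0.0234), but higher with the trend divided out (0.56, adjusted p = 0.0107). The kinase CDK2, which acts on NPAT, rose by 1.07 in DU145 (standard error 0.20, limma adjusted p = 0.00103), and E2F1 rose by 1.02 (standard error 0.19, adjusted p = 0.00117), at 0.73 and 0.46 with the trend divided out. In PC3 the largest rises against BPH-1 were LSM10, a U7 snRNP protein, and ZNF473, a zinc finger protein of histone pre-mRNA processing, each by 0.94. LSM11, the other U7-specific protein, rose by 1.22 in PC3 against DU145 (standard error 0.17, adjusted p = 0.00038) and ZNF473 by 1.02, while ERI1, an exonuclease that trims histone mRNA, fell by 0.75 and CCNE1 by 0.82. CHAF1A, of the chaperone CAF-1, passed the test in none of the comparisons. After correction for GC it was called lower in both PCa lines against BPH-1, at −0.77 in DU145 (adjusted p = 0.00219) and −0.56 in PC3 (adjusted p = 0.00444). ASF1B rose by 0.71 in PC3 against BPH-1 (standard error 0.14, limma adjusted p = 0.00162) and did not pass the test in the other comparisons, although with the trend divided out it was also called higher in PC3 than in DU145 (0.58, adjusted p = 0.00425).

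Of 25 S-phase genes, 3 rose, 8 fell and 14 did not pass the test in DU145 against BPH-1, and 3 rose, 11 fell and 11 did not pass in PC3 against BPH-1. Over all genes tested 30.3% were called higher and 32.4% lower in DU145, and 27.1% higher and 40.4% lower in PC3. With the GC trend divided out 10 of the 11 calls in DU145 and 11 of the 14 in PC3 were kept, and GINS1 and GINS3 changed sign in PC3. PCNA, the sliding clamp of replication, was at 158, 172, 131 and 161 FPKM in BPH-1, 38.4, 65.3, 30.1 and 59 in DU145 and 104, 89.3, 64.5 and 66.7 in PC3. It fell by 1.73 in DU145 (standard error 0.24, limma adjusted p = 0.000179) and by 0.95 in PC3 (standard error 0.17, adjusted p = 0.000766). MKI67, a marker of cycling cells, was at 86.1, 73.6, 78.9 and 75.1 FPKM in BPH-1, 1.54, 8.59, 0.297 and 8.53 in DU145 and 18.7, 10.6, 8.14 and 2.04 in PC3, and fell by 4.25 in DU145 (standard error 0.58, limma adjusted p = 0.000145). Its DU145 and PC3 values were lowest in the libraries that followed GC content most. With the GC trend divided out MKI67 was at −4.39 in DU145 (limma adjusted p = 0.000163). In PC3 it was at −3.15 before and −3.18 after that correction (limma adjusted p = 0.000274 after it). The correction used no transcript length, and the part of length in these differences was not tested. POLA1 fell by 3.05 in DU145 (standard error 0.36, limma adjusted p = 5.51e-05) and by 2.36 in PC3 (standard error 0.36, adjusted p = 0.000293). TYMS and TK1, of thymidylate synthesis, rose in both lines, TYMS by 1.5 in DU145 (standard error 0.17, limma adjusted p = 4.93e-05) and by 1.61 in PC3 (standard error 0.12, adjusted p = 3.62e-06). For PC3 against DU145, 4 rose (RRM2 by 0.83 and PCNA by 0.78 among them), 5 fell (CDC6 by 1.28 among them) and 16 did not pass the test. The shares over all genes tested were 20.0% higher and 28.3% lower.

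RNAs that have no poly(A) tail were listed as a measure of how much such RNA each library holds. The 943 snoRNA genes summed to 679 ± 53.6 FPKM in BPH-1, 784 ± 47.4 in DU145 and 731 ± 65 in PC3 (SD, n = 4), a ratio of 1.15 for DU145 to BPH-1 beside 5.45 for the histone cluster genes. That ratio was 0.933 for the sum of 49 scaRNA genes and 3.63 for RN7SL1. RN7SK was between 4.12 and 8.39 FPKM in BPH-1, 3.74 and 6.59 in DU145 and 7.06 and 19.3 in PC3. Over the 2 genes listed under its symbol RMRP was at 1.35 ± 0.746, 0.942 ± 0.448 and 4.27 ± 1.75 FPKM and RPPH1 at 2.48 ± 0.232, 1.47 ± 0.319 and 2.25 ± 0.279 in BPH-1, DU145 and PC3 (SD, n = 4). TERC was listed at 0 in all 12 libraries. RN7SL1 ranged from 0.857 to 71.5 FPKM within BPH-1 and from 17.8 to 408 within DU145. Its means were 47.7, 173 and 80.3 in BPH-1, DU145 and PC3, and those of RN7SL2 were 200, 128 and 227. MALAT1 was at 31.4 ± 3.93 in BPH-1, 7.65 ± 6.96 in DU145 and 3.07 ± 2.04 in PC3 (SD, n = 4). The part of library chemistry in the histone values was not tested.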

How the data were processed

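RNA of 12 libraries (4 each of BPH-1, DU145 and PC3) had been sequenced, and the submitters' notes name CASAVA 1.8, HISAT2 2.1.0 and edgeR and the build GRCh38. The authors deposited 1 table of normalized values, made as FPKM from counts scaled to library size and exon length, whose header names no unit, with gene length as the sum of distinct exons of GENCODE 29. Reads were recovered from the FPKM steps (92.1% to 93.6% of low values whole) and used for depth, the filter, the limit of 3 reads and voom. Reads and fragments are not told apart in the sources. Groups came from the sample titles, and 0 columns were unassigned. A gene was tested if 4 libraries held 10 reads or more, scaled to the median depth, and all libraries together 15. No 2 libraries of a line agreed within sampling noise.

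limma 3.58.1 (R 4.3.3, trend) was fitted to log2(FPKM + 1) for each pair of lines, with Benjamini-Hochberg adjustment over all genes tested. Differences on this scale are too small for genes of low FPKM. The fit was tested on simulated data. Without a GC trend it called 9 unchanged genes for PC3 against BPH-1, 8 for DU145 against BPH-1 and 7 for PC3 against DU145. With a GC trend of set size put on 1 line it called 10835, 11183 and 10808 unchanged genes. After that trend was divided out it called 10, 7 and 11. The adjusted p-values of FPKM as deposited make no allowance for such a trend. Python 3.11.15, numpy 2.4.6, pandas 2.3.3 and matplotlib 3.10.9 were also used. The members and all gene lists were chosen with earlier results of these data known, and the calls of the family are given as counts without p-values. Named were the 3 highest genes of each histone family, the 5 widest rises and falls per comparison among genes with a mean of at least 1 FPKM, all HIST3H and HIST4H genes, near-identical pairs, a fixed set from the lists and the 2 widest calls in each direction per list. Other members were named after their values were seen. Alternatives were other pseudocounts, filters, scalings, a replicate block, 1 fit over all lines, voom and leaving out each library. Added after seeing the data were the GC trend (spline, 5 degrees of freedom, genes with at least 50 reads) divided out, a fit without the 3 steepest libraries and a sum without HIST1H1C. Dividing out the trend also removes real differences that follow GC content. Protein sequences were not used here. Values of 2 genes of the fixed lists are not reported here.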

Additional observations from a re-analysis of the deposited data

Results flagged for a closer look

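Within-line spread was examined in 134 sets of 4 libraries, and in 10 of them 1 library lay far from the other 3. For values with a normal spread chance gives about 1 in 20. That rate does not apply to HIST1H4E and HIST1H3C in DU145, where 1 read against 0 meets the rule by construction. In PC3 replicate 4, H2AFX was at 121 FPKM against 71.4 to 79.9 in the other PC3 libraries and HIST3H2A at 14.4 against 6.44 to 6.93. In DU145 replicate 3, HIST1H1E was at 23.8 against 15 to 15.7, RPPH1 at 1.95 against 1.29 to 1.34, and HIST1H4E at 0.0436 (1 read) against 0. In DU145 replicate 2, HIST1H2BF was at 0.513 against 0.217 to 0.258 and HIST1H3C at 0.149 (1 read) against 0. HIST1H2AD was at 4.74 in DU145 replicate 4 against 0.312 to 0.785. In BPH-1, HIST1H1E was at 1.79 in replicate 3 against 0.516 to 0.595 and NPAT at 4.14 in replicate 4 against 2.71 to 2.85.

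For 2 genes the PCa lines lay on opposite sides of BPH-1 in every library. HIST1H2AG was 0.584 times BPH-1 in PC3 and 2.81 times in DU145, and HIST1H2BG was 1.87 times in PC3 and 0.232 times in DU145. These were noticed in the same libraries, and the difference between the effects was not tested as an interaction.

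Histone genes of other gene types, which no comparison used, gave reads in every library. The transcribed pseudogene HIST2H2BD was between 3.92 and 19.9 FPKM, with means of 9.48 in BPH-1, 13.5 in DU145 and 4.66 in PC3, and the transcribed pseudogene HIST2H2BC between 0.426 and 5.13 FPKM. Both lie between HIST2H2AA3 and HIST2H2AA4 on chromosome 1.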

How the results depend on the processing

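The replicate numbers did not pair the libraries. Correlations of deviations ran from −0.21 to 0.14 between PC3 and BPH-1, from −0.12 to −0.06 between DU145 and BPH-1 and from −0.73 to 0.59 between PC3 and DU145, and not every library matched its own number best. With the replicate block, 10733 genes were called for PC3 against BPH-1 (11085 without), 10131 for DU145 against BPH-1 (10666) and 6747 for PC3 against DU145 (7936).

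The causes of the following changes were not tested. For PC3 against BPH-1, 4 histone genes were called higher, against 2 with the stricter filter, 8 with the replicate block, 1 with the same summed FPKM, 10 with upper-quartile scaling and 2 with voom. There, 3 were called lower, against 5 with no filter, 1 with upper-quartile scaling and 1 with the GC trend divided out. For DU145 against BPH-1, 5 were called lower, against 10 with no filter, 1 with the stricter filter, 8 in 1 fit over all lines and 8 without the 3 steepest libraries. For PC3 against DU145, 6 were called higher, against 12 with no filter and 1 with the stricter filter. A filter changes which genes are tested. Among the replacement histone and other genes followed under every alternative, the log2 difference changed sign for PC3 against BPH-1 in H2AFJ (−0.20, 0.60 with the GC trend divided out), H2AFZ (−0.36, 0.04 with upper-quartile scaling) and H3F3A (−0.56, 0.69 with the GC trend divided out). Over the whole lists, calls that changed sign with the GC trend divided out were also those of ASF1A, NAP1L1, GINS1 and GINS3 for PC3 against BPH-1 and of ASF1A, ANP32E and H2AFV for DU145 against BPH-1. For PC3 against DU145, histone supply calls ran from 4 to 10 higher and 1 to 9 lower over the alternatives, and S-phase calls from 3 to 8 and 2 to 6.

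Leaving out 1 library at a time gave 21 to 22 genes higher and 5 to 8 lower for DU145 against BPH-1, 3 to 6 higher and 3 to 7 lower for PC3 against BPH-1, and 6 to 7 higher and 21 to 23 lower for PC3 against DU145. The 7 came without BPH-1 replicate 2, and the 8 without BPH-1 replicate 2, DU145 replicate 3 or DU145 replicate 4. The ratio of summed FPKM ran from 4.94 to 6.13, from 0.914 to 1.25 and from 0.168 to 0.225. Over the alternatives that tested them, 22 of 26 histone calls were kept for DU145 against BPH-1, 1 of 7 for PC3 against BPH-1 and 26 of 28 for PC3 against DU145, and 0 turned direction. Genes near 3 reads a library cannot be ordered at this depth.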
